A study of Mikania micrantha with 15 samples.

Results

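The genes described here are the shoot apex-dominant genes of Mikania micrantha (Asteraceae), an invasive climber known as mile-a-minute weed. They were chosen on measured values. An ID was taken when its mean in the 3 shoot apex libraries was at least 5 CPM (counts per 1000000 counts of the library) and at least 6 times the mean of each of flower, leaf, root and stem. This gave 227 of the 41487 gene IDs in the deposited count table. The same limits applied to the other tissues gave 792 flower-dominant, 747 root-dominant, 159 leaf-dominant and 53 stem-dominant IDs.

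The study sequenced RNA of 5 tissues of wild-type vines, with shoot apex, flower, leaf, root and stem at 3 libraries each, 15 in all. No tissue had a treatment, mutation or transgene. Per the labels' protocols, all plants were grown from rooted cuttings, with 60 days in Hoagland nutrient solution, a temperature of 24 °C and 16 h of light a day. The labels do not say whether the replicates of a tissue came from separate plants, so p-values here measure the spread between libraries, which may be technical.

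The shoot apex is the growing tip of the shoot. It holds the apical meristem, a small group of dividing stem cells, together with the youngest leaf primordia and the forming stem beneath them. In plants studied in detail, chiefly Arabidopsis, genes with high expression in this tissue include regulators that keep meristem cells undifferentiated, genes that set the boundaries and the upper and lower sides of young leaves, and genes of DNA replication and cell division. The table gives locus tags without names or products, so none of the 227 IDs can be placed in these groups here, and the labelled tissues were not checked against marker genes. The members are therefore described by their levels. CPM is not divided by gene length, so a higher CPM in 1 ID than in another does not mean more transcript molecules.

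Library totals ranged from 3777165 counts in root replicate 2 to 12817396 in shoot apex replicate 2, and those of shoot apex from 11023970 upwards. Leaf replicate 1 stood apart from the other leaf libraries in holding reads of flower transcripts. There were 123 IDs that averaged 50 CPM or more in flower and less than 1 CPM in each of shoot apex, root and stem. Leaf replicate 1 had reads of all 123, with a median level 3.29% as high as in flower. Of these IDs, leaf replicate 2 had reads of 39 and leaf replicate 3 of 42. Where a tissue held no read of an ID, its limit is taken as 3 counts over its 3 libraries, which is 0.0839 CPM in shoot apex, 0.0945 in flower, 0.0999 in leaf, 0.156 in root and 0.137 in stem. Such limits cover counting error only.

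Together the 227 members took a small share of the shoot apex library and a much smaller share elsewhere. They held 1.08, 1.17 and 1.15% of the counts in shoot apex replicates 1, 2 and 3. The share was 0.168, 0.105 and 0.117% in the flower libraries, 0.0323, 0.133 and 0.0561% in leaf, 0.0903, 0.0685 and 0.0937% in root, and 0.0819, 0.0942 and 0.0754% in stem. Every shoot apex library thus lay above every other library, which the choice of members fixes. In bulk RNA of a tissue, more cells of a type and more RNA per cell cannot be told apart. Among the other tissues the share varied most within leaf, where replicate 2 was the highest and replicate 1 the lowest of the 3.

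Most members were moderately expressed in shoot apex. Their means there ran from 5.77 to 228 CPM with a median of 34.7, and 31 members reached 100 CPM. The top member ranked 283rd of all IDs by CPM in shoot apex. In the other tissues the median of the members' means was 3.77 CPM in flower, 2.14 in leaf, 1.51 in root and 1.91 in stem. The ratio of the shoot apex mean to the next-highest tissue mean had a median of 7.84. It was at least 10 for 65 members, at least 20 for 15 and at least 50 for 5. The lowest shoot apex library lay above the highest of the 12 other libraries for all 227 members, against 20.2% of all tested genes, but this is the contrast that chose them.

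**Figure D1:**
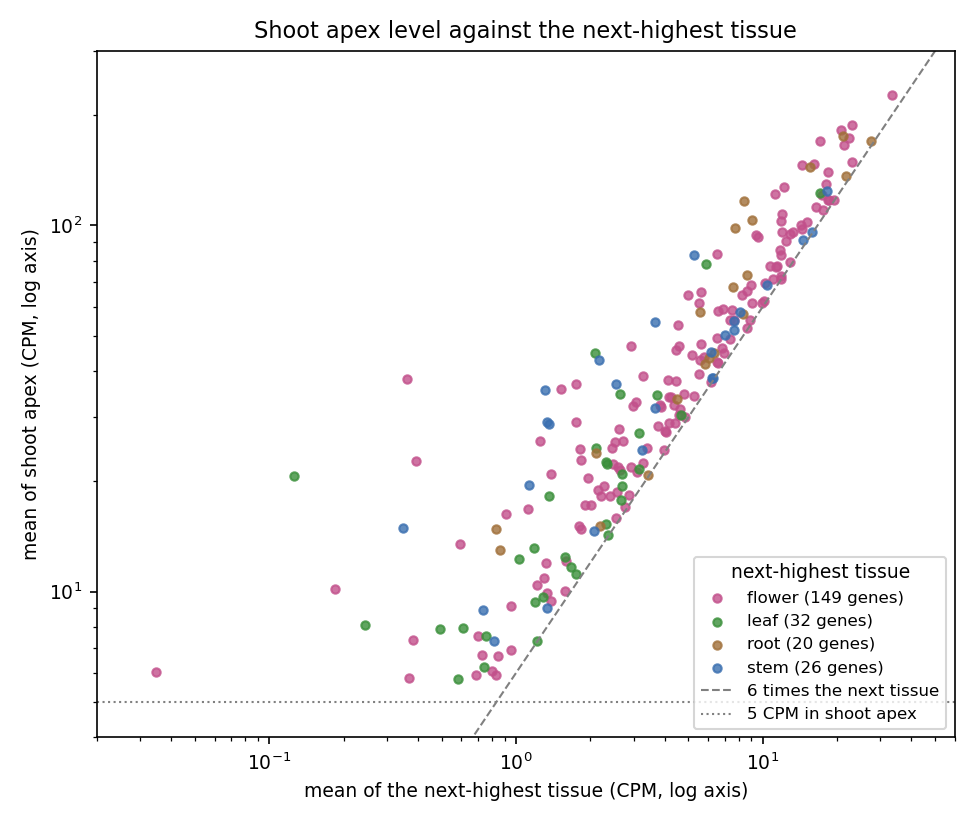
Mean of the 3 shoot apex libraries against the mean of the next-highest tissue for the 227 members, in CPM on log axes. Each point is 1 gene, coloured by its next-highest tissue, and the lines mark the limits of the rule. Most points lie close to the line of 6 times, and 5 genes have a ratio of at least 50.

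The limit of 6 times cut through a continuous range. Just inside it were E3N88_39564, with 117 CPM in shoot apex and 19.4 CPM in flower, a ratio of 6.03, and E3N88_27687, at 52.3 and 8.65 CPM, a ratio of 6.05. Just outside it were E3N88_07357, at 34.2 CPM in shoot apex and 5.70 in flower, a ratio of 5.996, and E3N88_02997, at 6.35 CPM in shoot apex and 1.06 in leaf, a ratio of 5.99. At the limit of 5 CPM, E3N88_18207 was just inside with 5.77 CPM and E3N88_41238 just outside with 4.74 CPM. With a limit of 4 times, 467 IDs would be members, and with 10 times, 65.

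The choice was also made on 2 of the 3 replicates of every tissue and read in the third, whose libraries had then no part in the choice. On replicates 1 and 2, 223 IDs were chosen, and 222 of them were highest in shoot apex in the replicate 3 libraries, at a median ratio of 8.13 to the next tissue. On replicates 1 and 3, 192 IDs were chosen, and all 192 were highest in shoot apex in replicate 2, at a median ratio of 8.28. On replicates 2 and 3, 267 IDs were chosen, and all 267 were highest in shoot apex in replicate 1, but at a median ratio of 5.66. Both limits of the rule were met in the left-out libraries by 172 of the 223, 159 of the 192 and 114 of the 267 IDs. Over all 15 libraries, 32.2% of all tested genes had their highest mean in shoot apex. Nearly all chosen IDs were thus highest in shoot apex in the left-out libraries too, while the exact membership depended on the libraries. The replicates may be technical, so the left-out libraries need not be independent of those used for the choice.

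The members differed in how far they were read outside the shoot apex. A mean of 1 CPM was reached in all 4 other tissues by 111 members, in 1 to 3 of them by 88, and in none by 28. The 111 had a median of 66.4 CPM in shoot apex and a median ratio of 7.27 to the next tissue. The 88 had 22.3 CPM and a ratio of 8.40. The 28 had 7.75 CPM and a ratio of 14.1. The 3 groups are cut from the same values that they describe, and members with low levels in shoot apex can reach 1 CPM elsewhere only at ratios close to the limit of the rule.

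**Figure D2:**
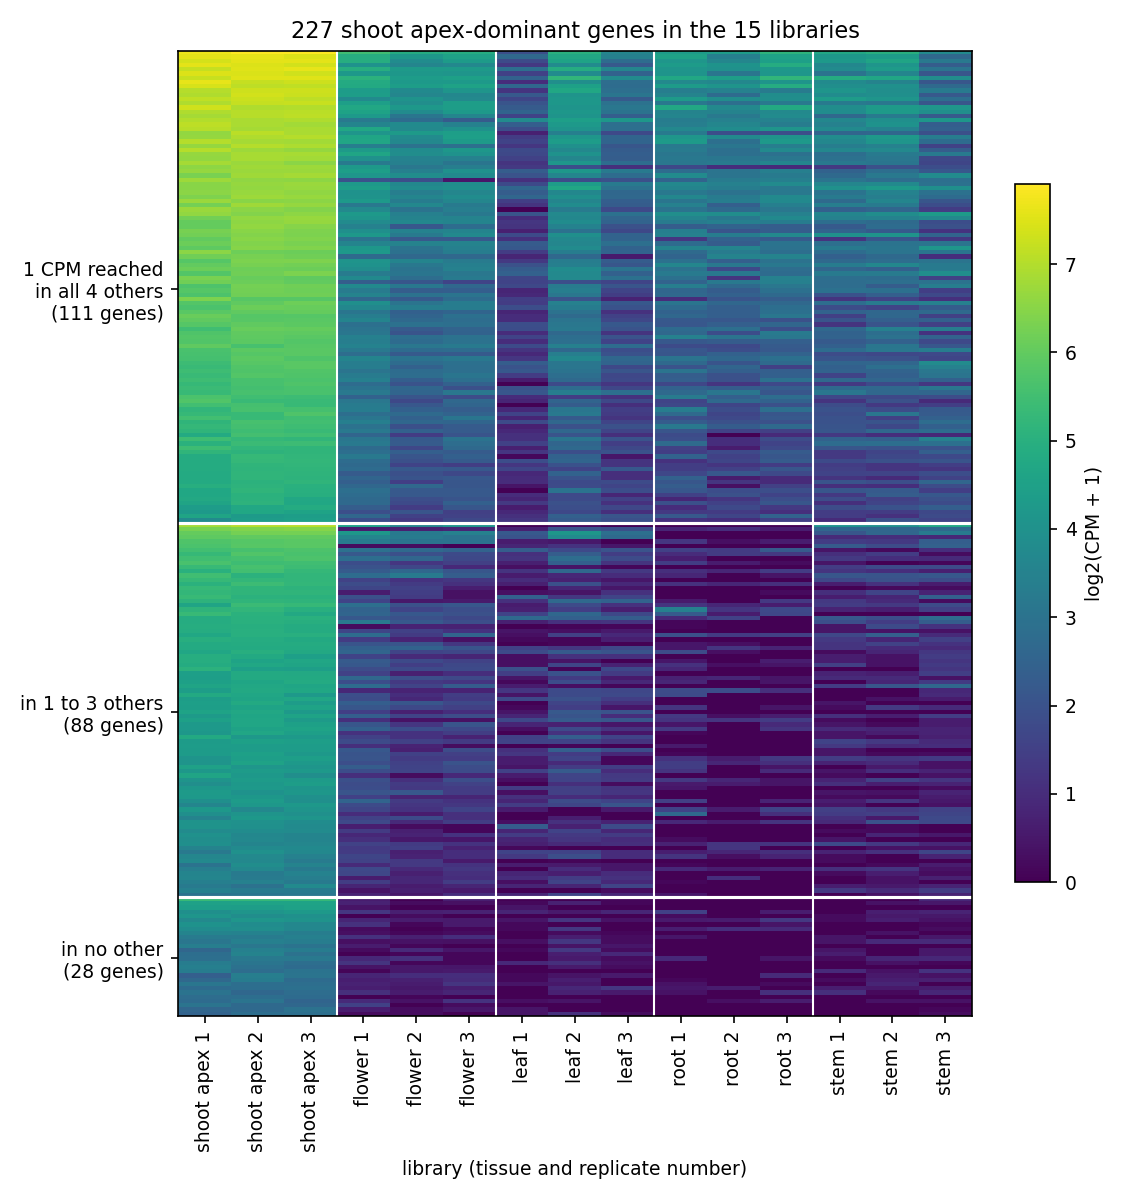
Level of each member in the 15 libraries as log2(CPM + 1), 1 row per gene and 1 column per library, with the shoot apex libraries at the left. Rows are grouped by the number of other tissues in which the mean reached 1 CPM (111 genes in all 4, 88 in 1 to 3 and 28 in none) and ordered by shoot apex mean within a group. Dark cells are low. Leaf replicate 1 is darker than leaf replicate 2 in the upper rows.

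The members with the highest CPM in shoot apex were read in every tissue. E3N88_01777 had 207, 238 and 238 CPM in shoot apex replicates 1, 2 and 3, the highest mean of all members (228 ± 17.9 CPM, SD, n = 3). Against this it had 43.2, 28.3 and 28.8 CPM in flower, 2.77, 31.7 and 11.0 in leaf, 19.1, 19.9 and 33.5 in root, and 25.5, 29.9 and 12.8 in stem. The shoot apex libraries did not overlap with the others, whereas the 4 other tissues overlapped with each other, and leaf spread over the widest range. It was also the member with the highest mean in flower and in stem. E3N88_37243 showed the same order within leaf. It had 191, 196 and 179 CPM in shoot apex, against 29.4, 17.2 and 22.2 in flower, 5.41, 25.5 and 9.83 in leaf, 21.8, 9.53 and 21.8 in root, and 17.1, 19.2 and 5.35 in stem. E3N88_13143, the member with the highest mean in both leaf and root, had 148, 181 and 180.2 CPM in shoot apex. It had 33.0, 19.5 and 21.3 CPM in flower, 4.65, 36.2 and 13.1 in leaf, 25.9, 20.4 and 35.8 in root, its next-highest tissue, and 28.1, 24.3 and 13.6 in stem. In each of these 3 members leaf replicate 2 was the highest and leaf replicate 1 the lowest of the leaf libraries.

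At the other end were members close to the limit of detection outside the shoot apex. E3N88_20622 had 39.0, 37.4 and 37.6 CPM in shoot apex. Its next tissue was flower, at 0.510, 0 and 0.576 CPM, which put the shoot apex mean 105 times higher. It had 1 read in leaf, 8 in stem, all of them in replicate 3, and 0 in root, so that shoot apex was at least 244-fold above root. E3N88_37489 had 22.0, 22.9 and 23.1 CPM in shoot apex and 0.680, 0.209 and 0.288 CPM in flower, a ratio of 57.9. It too had no read in root and was at least 146-fold higher in shoot apex. These were the largest ratios among members at 10 CPM or more with over 3 reads in the next tissue. No member was free of reads in all 12 other libraries.

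Root was the tissue in which members were most often not read at all. There were 46 members without a read in the 3 root libraries, against 7 in stem, 5 in leaf and 0 in flower. Root had the lowest total, 19260574 counts over its 3 libraries against 31748945 in flower, and the part of depth in these counts was not tested. Leaving out a library changed the smaller counts: without flower replicate 1 or 2, 1 and 2 members had no read in flower, without leaf replicate 1 or 2, 9 and 10 had none in leaf, and without stem replicate 1, 2 or 3, 11, 11 and 16 had none in stem. For the 46, shoot apex was higher than root by bounds of up to 797-fold, reached by E3N88_41259. At least 1 CPM was reached by 180 members in flower, 162 in leaf, 146 in stem and 125 in root. Of the 27055 tested genes, 24864 reached it in flower, 22706 in leaf, 21862 in stem and 21986 in root. The share of all tested genes without a read in a tissue is not given here, so the no-read counts have no background.

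By plain CPM, flower was the next-highest tissue for most members. It held this place for 149 of 227 (65.6%), leaf for 32, stem for 26 and root for 20. Without flower replicate 1, the flower count was 118. The split moved with the scaling of the libraries. With factors from the trimmed mean of M-values (TMM), flower was next for 107 of 227 members, and so no longer for most. Root and stem were then next for 42 each and leaf for 36. The same split over all tested genes is not given here, so these counts have no background. Among the 88 members read at 1 CPM in 1 to 3 tissues, 52 had flower next and 22 had leaf, and the most frequent combination was flower with leaf, in 21 members. Of the 111 read in all 4, 81 had flower next, 15 root, 12 stem and 3 leaf.

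How the members differed among flower, leaf, root and stem was compared next. These contrasts leave out the shoot apex, but the rule capped the mean of each of the 4 tissues relative to the shoot apex mean. The counts of members are therefore a description, given beside the share of all tested genes, with no test of the difference between them. The test was edgeR's quasi-likelihood F test on the counts of all 15 libraries, with p-values adjusted by Benjamini and Hochberg over 27055 genes. All 227 members passed the filter on low counts, but without the shoot apex libraries 187 passed it. Of the 227, 99 (43.6%) differed among the 4 tissues at an adjusted p under 0.05, against 81.8% of all tested genes. The part of the filter, and of the members' low levels in these tissues, in the gap between the shares was not tested. The count rested on 1 library in large measure. Without leaf replicate 2, 163 members (71.8%) differed, against 83.4% of all tested genes. With the 12 libraries of the 4 tissues fitted alone, 187 members were tested and 61 differed (32.6%, against 77.5% of all genes tested in that fit).

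For pairs of tissues, a call needed an adjusted p under 0.05 together with a 2-fold difference or more. Between flower and leaf, 43 members were higher in flower (18.9%, against 20.2% of all tested genes) and 10 were higher in leaf (4.41% against 15.7%). The median log2 fold change of flower over leaf was 0.67 over the members and 0.09 over all tested genes. Leaf replicate 2 decided the size of this difference. Without it, 109 members were higher in flower (48.0%, against 21.4% of all tested genes), 5 were higher in leaf (2.20% against 16.3%), and the median over the members was 1.29. The members higher in flower numbered 24 without flower replicate 1 (10.6%, against 18.4% of all tested genes) and 26 without leaf replicate 3 (11.5% against 18.2%). Without leaf replicate 1, the library with reads of flower transcripts, they numbered 30 (13.2% against 18.3%), and the median over the members was 0.40. Those higher in leaf numbered 5 (2.20%) without flower replicate 2 or flower replicate 3, against 14.8 and 14.5% of all tested genes.

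E3N88_37925 went against this direction, with the smallest p of the members higher in leaf. It had 8.07, 5.85 and 3.84 CPM in flower, against 13.1, 20.8 and 17.2 CPM in leaf. The libraries did not overlap, and the log2 fold change of flower over leaf was -1.70 ± 0.23 (SE, edgeR adjusted p = 2.63e-05). In the shoot apex it had 128, 119 and 123 CPM.

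Between flower and root, 58 members were higher in flower (25.6%, against 27% of all tested genes) and 8 in root (3.52% against 17.9%), or 5 (2.20%) without flower replicate 2 or 3, against 17.8 and 16.8%. The median log2 fold change was 0.60 over the members and 0.23 over all tested genes. Between flower and stem, 43 were higher in flower (18.9% against 24.9%) and 9 in stem (3.96% against 15.4%), with medians of 0.52 and 0.17. Without flower replicate 1, 27 members were higher in flower than in stem (11.9%, against 21.7% of all tested genes), and the members' median was 0.25. In these pairs more members were called higher in flower than in root or stem.

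E3N88_23857, which had the smallest p of the members higher in root than in flower, had 4.08, 3.34 and 2.02 CPM in flower, against 4.69, 8.21 and 9.88 CPM in root. The flower and root libraries did not overlap, and the log2 fold change of flower over root was -1.64 ± 0.30 (SE, edgeR adjusted p = 0.000327). Its shoot apex level was 71.5, 68.7 and 63.8 CPM. E3N88_23183 was nearly absent from flower and read in stem. It had 0.170, 0.209 and 0 CPM in flower, against 3.86, 2.55 and 4.53 CPM in stem. The log2 fold change of flower over stem was thus -5.01 ± 0.55 (SE, edgeR adjusted p = 1.3e-05), and the libraries did not overlap. It had no read in root and 49.6, 56.3 and 57.9 CPM in shoot apex.

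Between leaf and root, 46 members were higher in leaf (20.3%, against 23.3% of all tested genes) and 17 in root (7.49% against 20%). The median log2 fold change of leaf over root was -0.03 over the members and 0.06 over all tested genes, and the sign of the members' median was not stable. It was 0.17 with plain library totals, 0.10 without leaf replicate 1, 0.024 without leaf replicate 3 and -0.55 without leaf replicate 2. Between leaf and stem, 28 were higher in leaf (12.3% against 19.9%) and 29 in stem (12.8% against 15.6%), with medians of -0.18 and 0.11, and a members' median of 0.079 without leaf replicate 1 and -0.97 without leaf replicate 2. Both pairs turned on leaf replicate 2. Without it, 72 members were higher in root than in leaf (31.7%, against 19.6% of all tested genes) and 77 were higher in stem than in leaf (33.9% against 15.8%). The members higher in leaf then numbered 38 against root (16.7%, against 22.9% of all tested genes) and 18 against stem (7.93% against 18.5%). Without leaf replicate 3, 10 members were higher in root than in leaf (4.41% against 18.8%). Without flower replicate 1 or 2 or any 1 of the shoot apex libraries, 11 were (4.85%, against 18.8 to 18.9%).

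E3N88_31102 was among those higher in leaf than in root. It had 3.02, 12.9 and 5.56 CPM in leaf and no read in root, so that leaf exceeded root at least 46.0-fold (adjusted p by edgeR = 4.49e-06). It had 60.5, 62.2 and 61.6 CPM in shoot apex and 11.1, 8.78 and 7.30 in flower. E3N88_31570 had the opposite order, with 1.01, 1.67 and 1.19 CPM in leaf, against 8.79, 4.24 and 6.04 CPM in root. Its log2 fold change of leaf over root was -2.51 ± 0.30 (SE, edgeR adjusted p = 4.8e-06), and its shoot apex level was 49.2, 43.6 and 41.4 CPM.

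Between stem and root, there were 34 members higher in stem (15%, against 15.4% of all tested genes) and 8 in root (3.52% against 13.1%). The median log2 fold change of stem over root was 0.08 over the members and 0.00 over all tested genes, and the members' median was -0.10 with the 6 libraries of the pair fitted alone. Over the 6 pairs, 122 members (53.7%) were called in at least 1 pair, against 73.5% of all tested genes, and 105 in none. This gap too includes the members that passed the filter only through the shoot apex.

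**Figure D3:**
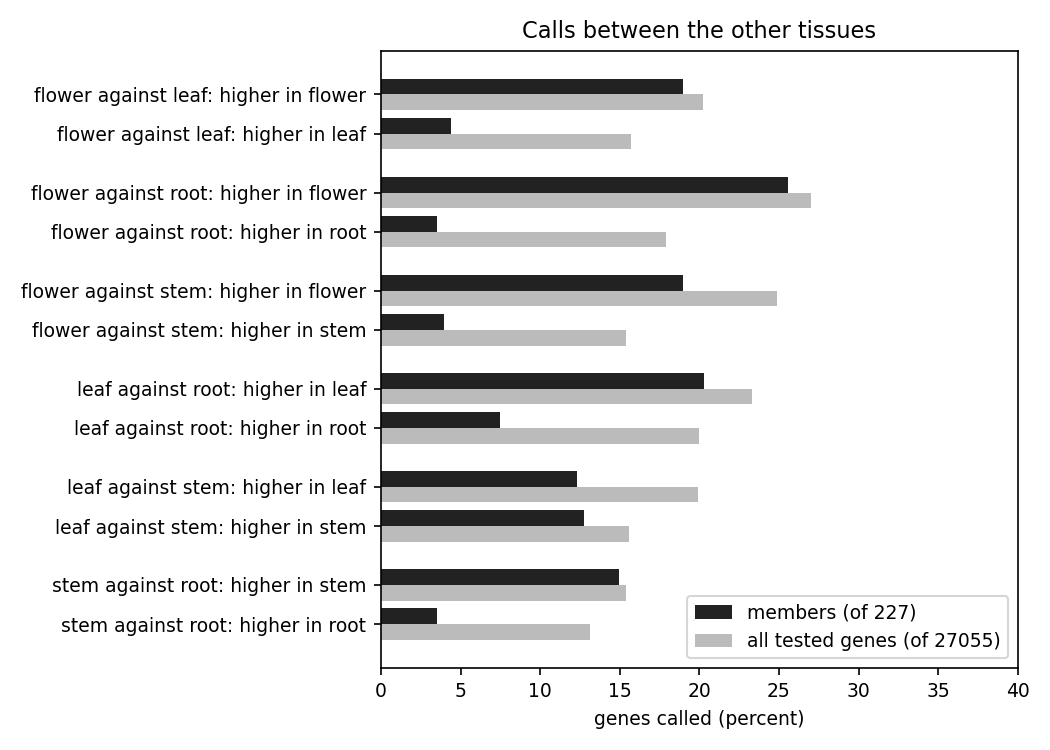
Percent of genes called in each of the 6 pairs of other tissues and each direction, by edgeR with the limits given in the text. Black bars are the 227 members and grey bars all 27055 tested genes. With all 15 libraries the members' bars are shorter than the grey bars in each of the 12 cases, by the most for calls higher in root than in flower (3.52% against 17.9%). Without leaf replicate 2 they are not, as for calls higher in flower than in leaf (48.0% against 21.4%).

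E3N88_41259 had the smallest p of the members called in 4 of the 12 pairs and directions. It had 111, 128 and 133 CPM in shoot apex. In flower it had 21.3, 10.6 and 15.6 CPM and in stem 15.4, 13.8 and 25.2 CPM, while leaf held 2 reads and root none. Flower exceeded root at least 102-fold and stem exceeded root at least 117-fold, with edgeR adjusted p-values of 2.66e-07 and 1.94e-07. The ratio of flower to leaf was 243, with a 95% exact (Clopper-Pearson) interval of 66.9 to 2012. The ratio of stem to leaf was 290, with an interval of 79.7 to 2399. These intervals cover counting error only.

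E3N88_05587 was read in every tissue but stem. It had 38.7, 31.8 and 26.5 CPM in shoot apex, against 5.01, 3.55 and 2.88 in flower, 2.01, 5.25 and 2.28 in leaf and 3.79, 0.529 and 2.19 in root. Shoot apex was at least 235-fold above stem. By CPM, flower exceeded stem at least 27.8-fold (edgeR adjusted p = 9.09e-05), leaf exceeded it at least 23.1-fold (edgeR adjusted p = 0.0001) and root at least 15.8-fold (edgeR adjusted p = 0.000192). With the libraries of root and stem alone, this member did not pass the filter on low counts. Its test in that pair thus depended on libraries of the other tissues.

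In the contrasts that chose the members, all 227 were called higher in shoot apex against every other tissue at once, as were 5.22% of all tested genes. The share of all tested genes called higher in shoot apex was 13.6% against flower, 18.3% against leaf, 30.6% against root and 26.3% against stem. Nothing is read from the members' count here, since the rule used these values. The median log2 fold change over the members was 3.05 over flower, 3.71 over leaf, 3.62 over root and 3.83 over stem, against 0.03, 0.06, 0.22 and 0.11 over all tested genes.

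Members moved together between the replicates of leaf and of flower, a pattern that the rule did not use and that was noticed after the values were seen. Of the 162 members with at least 1 CPM in leaf, 145 (89.5%) were highest in leaf replicate 2, against 50.5% of all tested genes at that level. Leaf replicate 1 was the lowest for 130 (80.2%), against 51.4%. The median member stood at 0.412, 1.77 and 0.742 times its leaf mean in leaf replicates 1, 2 and 3, whereas the median tested gene stood at 0.918, 1.07 and 0.975 times. Among the 111 members read in all 4 other tissues, 107 were highest in leaf replicate 2 and 0 in leaf replicate 1. With TMM scaling, an alternative chosen after seeing the data, 87.7% of the members were highest in leaf replicate 2, against 40.3% of all tested genes.

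In flower, 161 of 180 members (89.4%) were highest in replicate 1, against 52.7% of all tested genes, and with TMM scaling 81.5% were, against 38.5%. The median member stood at 1.34, 0.794 and 0.886 times its flower mean in replicates 1, 2 and 3. In root, 81 of 125 members (64.8%) were lowest in replicate 2, against 46.1% of all tested genes. In stem, replicate 3 was highest for 64 of 146 members (43.8%), against 63.6%. The members share their libraries and are not independent of each other, so these are counts and not tests.

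**Figure D4:**
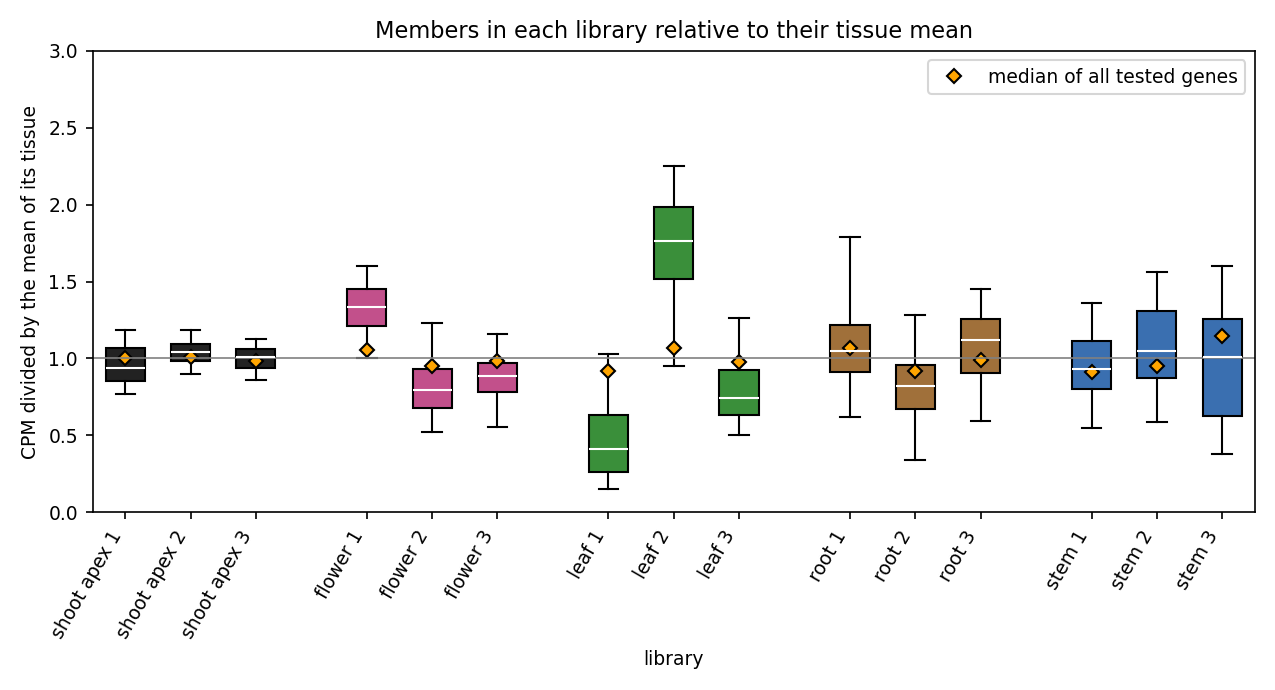
CPM of each member divided by its tissue mean, by library, for members with a tissue mean of at least 1 CPM. Boxes give the quartiles and the median, whiskers run from the 5th to the 95th percentile, and diamonds mark the median of all tested genes in the same library. The members' medians lie away from the diamonds in leaf replicates 1 and 2 (0.412 and 1.77) and in flower replicate 1 (1.34).

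In the shoot apex itself the median member stood at 0.936, 1.04 and 1.01 times its tissue mean in replicates 1, 2 and 3. These values were closer together than in leaf or flower, but similar to those in stem, at 0.929, 1.05 and 1.01 times. The coefficient of variation (CV, the SD over the mean of the 3 libraries) had a median of 11.7% over the members and 7.51% over all 19002 IDs with at least 5 CPM in shoot apex. Shoot apex replicate 1 was the lowest of the 3 for 133 members (58.6%), against 36.3% of all tested genes. Without it the members' median CV was 4.27%, over fewer libraries and with no such value for all IDs. Over genes as a whole, too, replicates 2 and 3 were the closest pair in shoot apex. Their chi-square of counts was 2.07 per degree of freedom, against 8.94 and 8.87 for the pairs with replicate 1. The most even member was E3N88_14487, with 19.6, 19.6 and 19.5 CPM, followed by E3N88_37337, with 27.6, 27.4 and 27.2 CPM. The least even were E3N88_14743, at 4.29, 9.36 and 7.17 CPM (CV 36.7%), and E3N88_00155, at 8.32, 6.87 and 12.9 CPM (CV 33.6%). The first of these lay below 5 CPM in replicate 1, and it is a member by its mean of 6.94 CPM.

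Few members had consecutive ID numbers. There were 18 (7.93%) in 8 runs, against 139 of 747 root-dominant IDs (18.6%), 106 of 792 flower-dominant (13.4%), 14 of 159 leaf-dominant (8.81%) and 5 of 53 stem-dominant IDs (9.43%). A larger set holds a larger share of consecutive numbers by its size alone, so these shares do not show which set is more clustered. Whether numbers that follow each other stand for genes that lie side by side was not checked, as no annotation was used here. The shares are given without a test. The longest run among the members had 4 IDs, E3N88_30412 to E3N88_30415. How reads shared by near-identical copies were counted is not given in the sources used here, so that levels within a run are uncertain if the IDs are such copies.

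The 4 IDs of this run had one pattern, with stem as the next tissue in each; all 4 are given, the last 2 being added after their values were seen. E3N88_30412 had 38.2, 36.7 and 35.9 CPM in shoot apex, against 1.55 ± 0.362 in flower and 2.54 ± 0.327 in stem (SD, n = 3), and no read in root. E3N88_30413 had 16.4, 13.7 and 14.8 CPM in shoot apex and 2 reads in flower, 0 in leaf, 8 in stem and 2 in root. E3N88_30414 had 29.6, 29.7 and 27.8 CPM in shoot apex, against 1.34 ± 1.02 in stem. E3N88_30415 had 36.8, 34.9 and 35.0 CPM in shoot apex, against 1.31 ± 0.715 in stem. The IDs on either side of the run did not meet the rule. E3N88_30411 had no read in any library. E3N88_30416 was read only in shoot apex, but its mean of 0.385 CPM there was below the limit of 5 CPM.

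A second run, E3N88_41258 and E3N88_41259, had flower and stem as the higher of the other tissues and no read in root. E3N88_41258, which was named after its values were seen, had 39.1, 47.7 and 41.8 CPM in shoot apex, against 3.06, 2.20 and 0.864 in flower and 1.65, 2.40 and 2.47 in stem. It was thus lower than E3N88_41259 in each of these tissues. In leaf, where both levels were low, E3N88_41258 had the higher mean, 0.228 against 0.0556 CPM. Of the IDs beside members that were not members themselves, 302 were tested, and 36.4% of them had their highest mean in shoot apex, against 32.2% of all tested genes. Called higher in shoot apex against all 4 other tissues were 24 (7.95%), against the 5.22% of all tested genes given above.

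**Figure D5:**
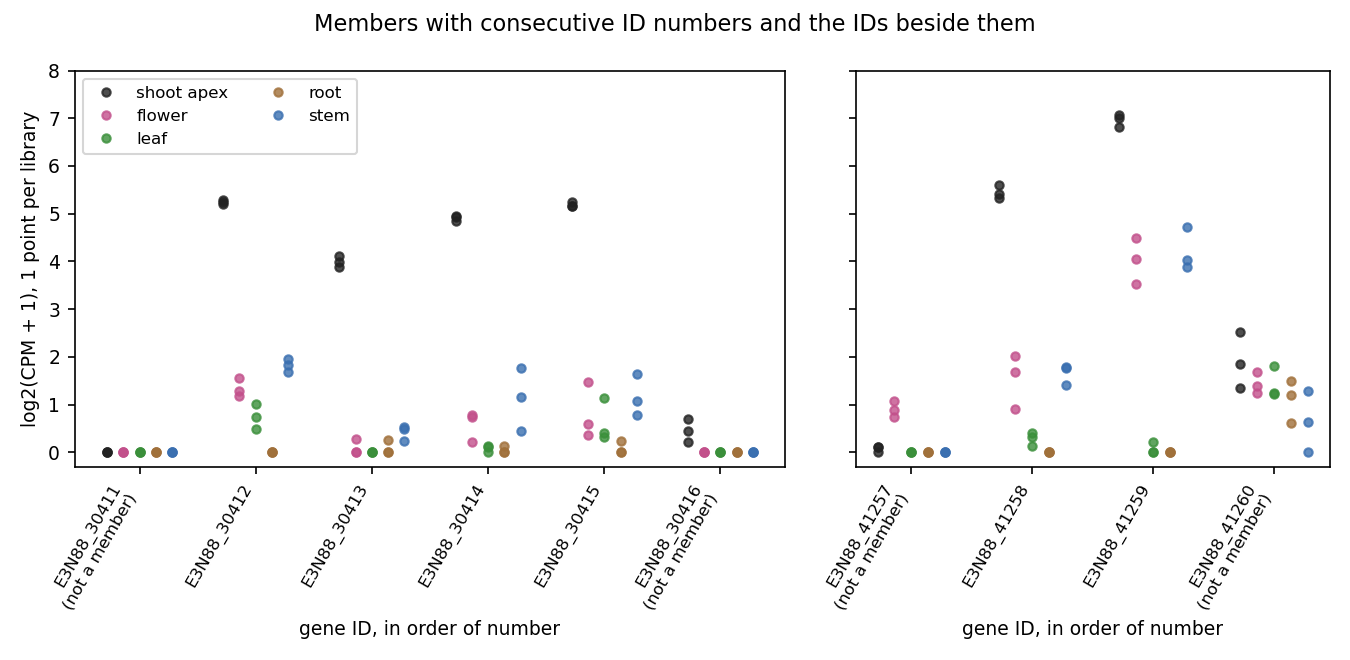
Level as log2(CPM + 1) in each of the 15 libraries for 2 runs of members with consecutive ID numbers and for the ID on each side. Each point is 1 library, with shoot apex at the left of each ID. In the run of 4, shoot apex stands above all other tissues in each member, and stem is next, while the IDs on each side are at or near 0.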

How the data were processed

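RNA-seq of 15 libraries, 3 from each of 5 tissues, was analysed from 1 table of raw read counts per gene ID that the authors deposited. The aligner was HISAT2 per the submitters' processing notes. The counter, build, annotation and strand setting are not given here, so antisense and overlapping genes cannot be told apart. Library totals were 3777165 to 12817396 counts. The members were chosen on CPM of plain library totals. The members, the lists and the tests were chosen with earlier results of these data known. Counts were tested with edgeR 4.0.16 in R 4.3.3 (filterByExpr by tissue, TMM factors, glmQLFit and glmQLFTest over all 15 libraries, Benjamini-Hochberg adjustment within each contrast). This test was tried on simulated counts for flower against stem only, with few genes changed, unlike the data. The other contrasts were not simulated. SE is the log2 fold change over the square root of F. Fold bounds and intervals use plain totals. DESeq2 1.42.0 was an alternative. With no names in the table, at most 2 IDs per comparison and direction were named, by rule: the highest in shoot apex and in each other tissue, the largest ratios, those at the limits, the smallest p in each pair and direction, the largest and smallest CV, and the longest run. Gene lists by name could not be matched and were not run. All replicate pairs differed by more than sampling noise, with a chi-square of at least 2.07 per degree of freedom over genes.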

Additional observations from a re-analysis of the deposited data

How the results depend on the processing

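Over 53 results and 884 alternatives, 824 stayed within the limits set for them and 60 moved by more. For counts of members the limit was 1.5 times. For median fold changes and shares of counts it was the spread between libraries, and for the CV the SD over members. Named calls had to keep their direction and their side of the threshold. A median could thus change sign and still stay within its limit. No call reversed, but 3 medians over the members, which carry no test, changed sign: that of leaf over root ran from -0.55 to 0.17, that of leaf over stem from -0.97 to 0.079 and that of stem over root from -0.10 to 0.21. All 12 named calls between pairs of tissues held in every alternative fit that tested them, with an adjusted p of at most 0.00814. The call of E3N88_05587 between stem and root was not tested with the 6 libraries of the pair alone, where it did not pass the filter. The set held 177 IDs with TMM scaling and 156 with DESeq2 size factors, all of them among the 227. It held 467 with a limit of 4-fold, 65 with 10-fold, 72 when every shoot apex library had to reach 6 times every other library, and 192 to 270 with libraries left out. The cause of the changes below was not tested, apart from fewer libraries in a fit. When the 12 libraries of flower, leaf, root and stem were fitted alone, 61 members differed among these tissues. The calls were then 23 for flower over leaf and 4 for leaf over flower, 38 for flower over root, 25 for flower over stem and 5 for stem over flower, 26 for leaf over root and 11 for root over leaf, 16 for leaf over stem and 19 for stem over leaf. Over the 12 pairs and directions of that fit, 2.14 to 20.3% of members were called, against 12.2 to 26.1% of all genes. When only the 6 libraries of a pair were fitted, with 123 to 182 members tested, they were 21 for flower over leaf and 4 for leaf over flower, 30 for flower over root, 12 for leaf over root and 9 for root over leaf, 11 for leaf over stem and 14 for stem over leaf, 10 for stem over root and 2 for root over stem, with 1.63 to 22.1% of members called, against 13.0 to 26.1% of all genes. With plain library totals they were 6 for leaf over flower (2.64%, against 13.1% of all genes), 4 for root over flower (1.76% against 13.0%) and 11 for root over leaf (4.85% against 16.6%). Plain totals shifted the median over all tested genes, against TMM, by up to 0.39 on the log2 scale between the other tissues (flower over root) and by 0.45 for shoot apex over root. With TMM, root and stem were each the next tissue for 42 members, and the members' share of counts was 0.968% in shoot apex, 0.0980% in root and 0.0939% in stem. With numbers at most 2 or 5 apart, 28 and 34 members had a neighbour.

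Leaving out 1 library at a time gave 86 to 163 members that differed among the 4 tissues, against 75.8 to 83.4% of all tested genes. It gave 24 to 109 calls for flower over leaf (all genes 17.2 to 21.4%) and 5 to 11 for leaf over flower (14.5 to 16.5%), 5 to 9 for root over flower (16.6 to 18.2%), 27 to 49 for flower over stem (21.5 to 26.0%), 10 to 72 for root over leaf (18.8 to 20.4%), 18 to 34 for leaf over stem (17.0 to 20.9%) and 23 to 77 for stem over leaf (13.8 to 16.1%). The members without a read were 0 to 2 for flower, 7 to 10 for leaf and 11 to 16 for stem, and the median CV in shoot apex was 4.27 to 13.5%. Members without a read were not recounted under TMM, which leaves a 0 at 0, or with medians. Replicate numbers did not pair the libraries: deviations of same-numbered libraries had correlations of -0.20 to 0.22, with 3 of 30 over 0.1. With the number as a replicate block, 94 members differed among the 4 tissues (41.4%, against 78.9% of all tested genes). No count of calls moved by more than 1.5 times with it. DESeq2 gave 120. Low counts limit the comparisons outside the shoot apex, where 1 read in root stands for 0.0998 to 0.265 CPM.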
